A study of Mus musculus with 6 samples.

Results

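The Kelch-like genes Klhl and Kbtbd were followed in tibialis anterior, a mixed limb muscle of the mouse, in control animals and in animals labelled with the MLC-SOCS-3 transgene. Members were the probe sets whose only gene symbol in the platform annotation starts with Klhl or Kbtbd and a digit, and each gene was represented by the probe set with the highest mean over the 6 arrays. This gave 45 genes of 19938, from 49 probe sets of 35557. All 45 matched the RefSeq gene table by Entrez identifier. That table holds 47 symbols of this form, and the other two, Klhl17 and the Kbtbd8 antisense transcript Kbtbd8os, were not analysed here.

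Kelch-like proteins carry a BTB domain that binds the scaffold Cul3 and a Kelch propeller that holds a substrate, so that each acts as a receptor of a cullin-RING ubiquitin ligase. The ligase is switched on by attachment of the small modifier Nedd8 to the cullin and switched off by the COP9 signalosome. SOCS proteins are receptors of a sister ligase built on Cul5. In skeletal muscle the family is best known through KLHL40, KLHL41 and KBTBD13, whose mutation in people causes nemaline myopathy, a disease of the thin filament. Some muscle members protect sarcomere proteins rather than mark them for degradation.

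The groups were 3 samples from control C57Bl6J mice and 3 from MLC-SOCS-3 mice on C57Bl6J, with 1 Affymetrix array each. According to the labels all mice were 11 weeks old and had been starved for 6 h, and 300 ng of total RNA was labelled per sample. The sources used here do not spell out MLC, the promoter, the transgenic line or whether the replicates are separate animals, so the p-values speak only of how these samples scatter, part of which may be technical. Values are log2 RMA intensities, and the difference is always MLC-SOCS-3 minus control on that scale. A level is set only against the median probe set, 5.99, because probe sets of different genes bind with different strength.

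The 8 fibre markers averaged 14.2 on each array, far above the median probe set, while the cardiac markers Myh6 and Nppa averaged 5.73 to 6.08. Liver RNA markers were present and uneven. Their mean ran from 8.23 to 9.19 in the controls and from 6.26 to 9.45 on the arrays labelled MLC-SOCS-3. Adipocyte markers averaged 5.08 to 5.19 in controls and 5.41 to 5.53 in the labelled transgenics. The brighter Socs3 probe set read 7.41 ± 0.03 (SD, n = 3) in controls and 7.15 ± 0.09 (SD, n = 3) in the labelled transgenics. The dimmer read 6.37 ± 0.12 in controls and 6.14 ± 0.02 in the labelled transgenics (SD, n = 3 each). In both probe sets all labelled transgenic arrays lay below all controls (limma unadjusted p = 0.011 and 0.030, adjusted p = 0.80 and 0.82). The level of Socs3 therefore does not bear out the label. Whether the probes lie in the transgene is not given in the sources used here, and directions are given for the arrays as labelled.

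None of the 45 Kelch genes passed the test between the labelled groups. Their differences ran from -0.16 for Klhl36 to 0.31 for Klhl40, 20 were positive (44.4%, beside 43.8% of all genes) and 25 negative, and the median was -0.022 beside -0.016 for all genes. In limma over all 35557 probe sets the adjusted p-values of the 45 genes were 0.83 or higher, and 0 of 45 reached an unadjusted p under 0.05. The background for that limit was 4.86% of genes and 5.92% of probe sets, and for an adjusted p under 0.05 it was 0%. Without MLC-SOCS-3 replicate 1 the count at an unadjusted p under 0.05 was 3 (Klhl14, Klhl36 and Klhl40), and without control replicate 1 it was 1 (Klhl29). Klhl29, Klhl36 and, further on, Klhl6 are singled out after their values were seen. These are whole-muscle RNA levels, in which fewer cells of a type and less RNA per cell cannot be told apart.

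For each gene alone, the intervals bound how large a difference between these samples could have been missed. For 42 of the 45 genes the 95% interval of the difference lay within 1.5-fold in either direction (0.58 on the log2 scale). The other 3 were Klhl40, Klhl30 and Klhl38, all genes of muscle, and their intervals were wide because the arrays of each group spread widely. All 45 intervals included 0. RMA compresses the folds of dim and of very bright probe sets, so the bounds hold for this scale.

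**Figure D1:**
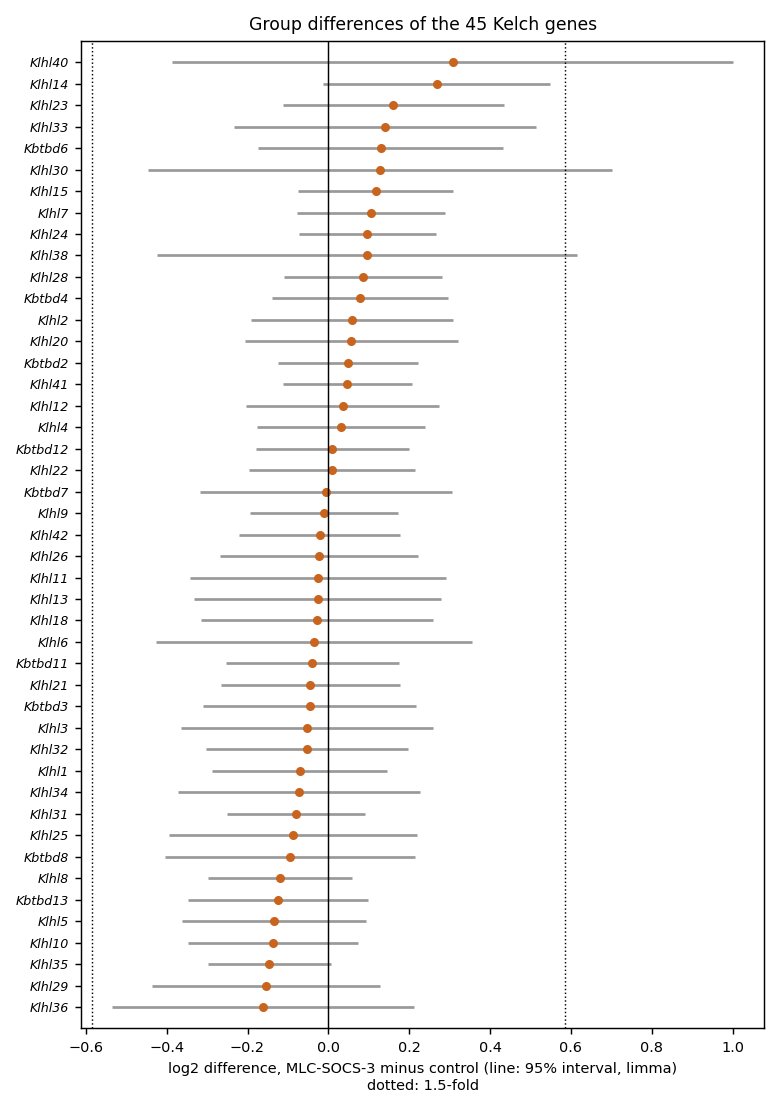
Log2 difference (x axis, MLC-SOCS-3 minus control) for each of the 45 Kelch genes (y axis), with limma's 95% interval as a line and dotted lines at 1.5-fold. Every interval crosses 0, and the intervals of Klhl40, Klhl30 and Klhl38 alone pass a dotted line.

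Klhl40, which binds and stabilises nebulin and leiomodin-3 on the thin filament, had the largest difference of the family and the widest spread. It read 9.49, 9.15 and 8.91 on control replicates 1, 2 and 3, and 8.92, 9.60 and 9.95 on MLC-SOCS-3 replicates 1, 2 and 3. The groups overlapped: MLC-SOCS-3 replicate 1 lay with the lowest control, and the other two lay above every control. The difference was 0.31 ± 0.28 (SE), with a 95% interval from -0.387 to 1.002 (limma adjusted p = 0.89). A single array moved it far, to 0.59 (limma adjusted p = 0.72) without MLC-SOCS-3 replicate 1 and to 0.079 (limma adjusted p = 0.99) without MLC-SOCS-3 replicate 3. Over all alternatives its adjusted p stayed between 0.72 and 0.99.

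Klhl41, a close relative of Klhl40 that also supports nebulin and myofibril assembly, was steady. Its control values were 12.63, 12.53 and 12.59, and the arrays labelled MLC-SOCS-3 gave 12.59, 12.62 and 12.68. The difference was 0.047 ± 0.07 (SE), with an interval from -0.11 to 0.21 (limma adjusted p = 0.92), so the 2 groups lay within the spread between replicates. Kbtbd13, a Cul3 adaptor that also binds actin filaments, read 7.72, 7.50 and 7.60 in controls and 7.58, 7.50 and 7.36 in the labelled transgenics. MLC-SOCS-3 replicate 3 was the lowest array, and the difference of -0.12 ± 0.09 (SE) did not pass (limma adjusted p = 0.87).

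Klhl31, a Kelch protein of skeletal and cardiac muscle that acts on filamin C, was measured by 2 probe sets of this gene alone. The brighter read 12.93, 12.88 and 13.00 in controls and 12.87, 12.91 and 12.79 in the labelled transgenics, a difference of -0.079 ± 0.07 (SE). The other probe set read 11.957, 11.960 and 12.017 in controls and 11.946, 11.886 and 11.751 in the labelled transgenics, without overlap, a difference of -0.12 ± 0.07 (SE). In both probe sets MLC-SOCS-3 replicate 3 was lowest and control replicate 3 highest, and neither difference passed (limma adjusted p = 0.88 and 0.86).

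The other muscle Kelch genes are less well characterised, and 3 of them varied strongly between replicates. Klhl30 read 10.49, 10.29 and 9.87 in controls and 10.01, 10.29 and 10.74 in the labelled transgenics. It was lowest on control replicate 3 and MLC-SOCS-3 replicate 1 and highest on MLC-SOCS-3 replicate 3, the same extremes as Klhl40. Its difference was 0.13 ± 0.23 (SE), and the sign turned to -0.071 without MLC-SOCS-3 replicate 3 and to -0.045 without control replicate 3. Within each group Klhl33 ran the other way, with 9.73, 9.82 and 10.21 in controls and 10.21, 10.10 and 9.87 in the labelled transgenics. Its highest arrays were control replicate 3 and MLC-SOCS-3 replicate 1, where Klhl40 and Klhl30 were lowest, and its difference was 0.14 ± 0.15 (SE).

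Klhl38 followed neither order. It read 9.71, 10.01 and 9.42 in controls and 10.18, 9.57 and 9.67 in the labelled transgenics, so its highest array was MLC-SOCS-3 replicate 1 and its lowest control replicate 3. The difference was 0.096 ± 0.21 (SE), and it was -0.089 without MLC-SOCS-3 replicate 1 and -0.050 without control replicate 3. Klhl34 stood at 9.22 on control replicate 1, above 8.77 and 8.91 on the other controls and 8.90, 8.92 and 8.87 in the labelled transgenics. Its difference of -0.073 ± 0.12 (SE) became 0.055 without control replicate 1. Kbtbd12 was even, at 8.90, 8.84 and 8.93 in controls and 8.92, 8.99 and 8.79 in the labelled transgenics, a difference of 0.0098 ± 0.08 (SE). Its dimmer probe set gave 0.086 ± 0.10 (SE). The adjusted p-values of these 5 genes in limma lay between 0.91 and 0.99.

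**Figure D2:**
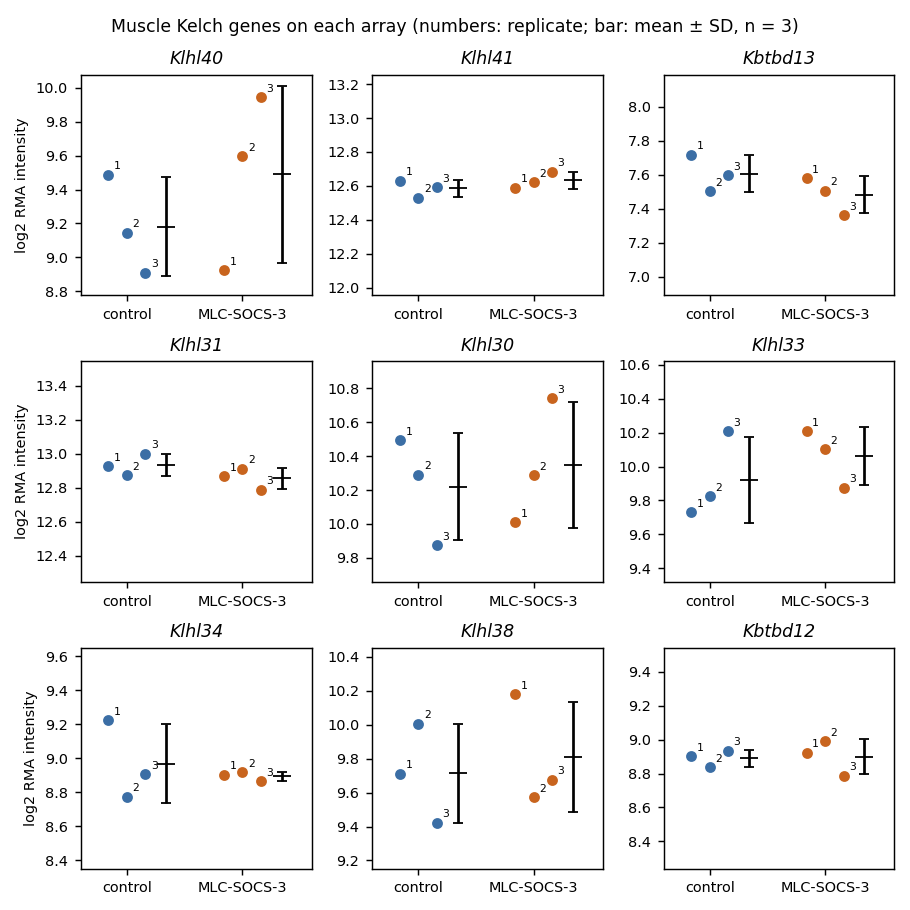
Log2 RMA intensity (y axes, all spanning 1.3 log2 units) of the 9 muscle Kelch genes on each array, by group (x axis), with replicate numbers beside the points and the mean ± SD (n = 3) as a bar. Klhl40, Klhl30, Klhl33 and Klhl38 scatter widely within groups, and Klhl41, Klhl31 and Kbtbd12 are tight.

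The muscle Kelch genes differed widely in their spread between replicates. The within-group SD of Klhl40, pooled over both groups, was 0.42, larger than in 99.3% of the 11409 genes above the median level. Klhl30 had an SD of 0.34 (98.8%), Klhl38 of 0.31 (98.4%) and Klhl33 of 0.22 (94.9%). Klhl41 and Klhl31 had SDs of 0.050 (15.5%) and 0.063 (26.6%). Over the 45 members the median SD was 0.13, beside 0.11 for all genes and 0.089 for the genes above the median level. Outside muscle genes, the B cell adaptor Klhl6 had an SD of 0.23 (95.7%) near the median level, where spread is generally larger. These are descriptions of 6 arrays, with no test.

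**Figure D3:**
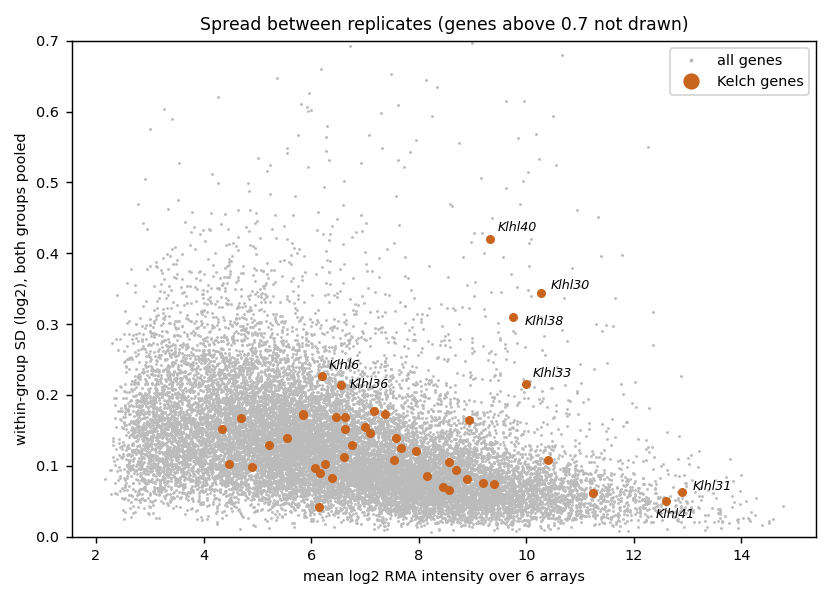
Within-group SD (y axis, log2, both groups pooled) against mean log2 RMA intensity over 6 arrays (x axis) for all 19938 genes (grey; SDs above 0.7 not drawn) and the 45 Kelch genes (orange). Klhl40, Klhl30, Klhl38 and Klhl33 lie above most genes of like intensity, and Klhl41 and Klhl31 lie low.

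Filamin C, the actin crosslinker encoded by Flnc and a target of Klhl31, shared the array order of Klhl40 and Klhl30 at its extremes. It read 12.51, 12.31 and 11.92 in controls and 12.15, 12.46 and 12.81 in the labelled transgenics (difference 0.23 ± 0.22, SE, limma adjusted p = 0.89). The liver markers were also highest on MLC-SOCS-3 replicate 3. Alb, which encodes serum albumin, read 10.19, 9.48 and 8.99 in controls and 6.29, 8.70 and 10.67 in the labelled transgenics. Apoa1, an apolipoprotein of liver and gut, read 8.20, 8.08 and 7.47 in controls and 6.23, 6.96 and 8.22 in the labelled transgenics. Within each group Alb, Apoa1, Klhl40, Klhl30 and Flnc ran in the same order. They fell from control replicate 1 to 3 and rose from MLC-SOCS-3 replicate 1 to 3. Over the 6 arrays Alb and Apoa1 were lowest on MLC-SOCS-3 replicate 1, and Klhl40, Klhl30 and Flnc on control replicate 3. The part of this liver signal in the spread of Klhl40 and Klhl30 was not tested.

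**Figure D4:**
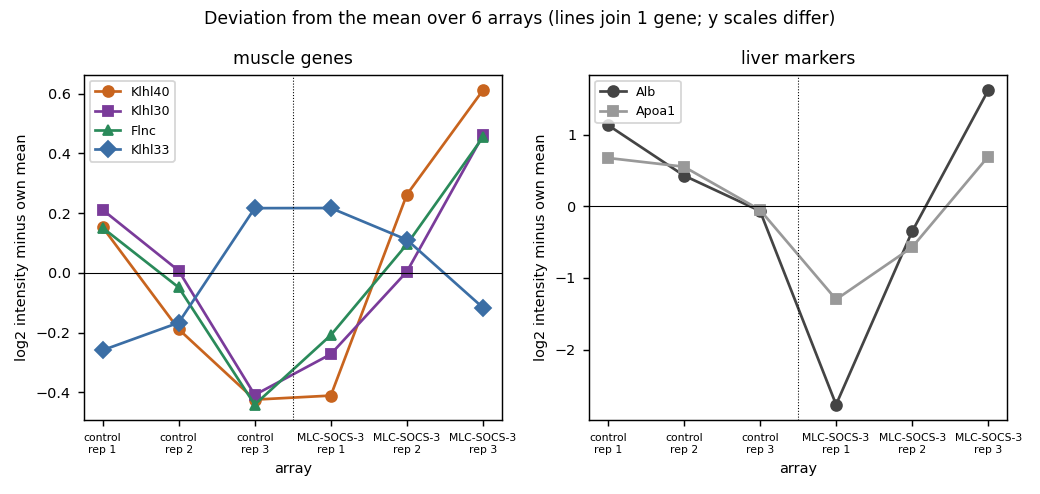
Log2 intensity minus the gene's own mean (y axes, with different scales) on the 6 arrays (x axes), for Klhl40, Klhl30, Flnc and Klhl33 on the left and the liver markers Alb and Apoa1 on the right. Klhl40, Klhl30 and Flnc peak on MLC-SOCS-3 replicate 3, as Alb and Apoa1 do, and Klhl33 lies below its own mean there.

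The stretches before the transcription start of Klhl40, Klhl33 and Klhl41 are shown. They were picked because Klhl40 and Klhl33 varied in opposite order within each group, while Klhl41 was steady. Each is 250 bases, ending at the base before the start, from RefSeq on GRCm38.p6: chr9:121777357-121777606 on the plus strand, chr14:50897484-50897733 on the minus strand and chr2:69669870-69670119 on the plus strand. Klhl33 has a further start in that table, not shown, whose stretch holds 0 E-boxes and 0 MEF2 matches. Capitals mark E-boxes (CANNTG, the site class of MyoD-type factors) and the MEF2 motif, both of which read the same way on either strand and did not overlap one another here.
Klhl40: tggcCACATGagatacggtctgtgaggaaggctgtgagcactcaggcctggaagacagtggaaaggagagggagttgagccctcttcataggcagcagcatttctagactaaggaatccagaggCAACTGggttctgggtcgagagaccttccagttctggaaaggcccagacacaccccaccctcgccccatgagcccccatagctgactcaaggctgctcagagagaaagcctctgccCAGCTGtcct
Klhl33: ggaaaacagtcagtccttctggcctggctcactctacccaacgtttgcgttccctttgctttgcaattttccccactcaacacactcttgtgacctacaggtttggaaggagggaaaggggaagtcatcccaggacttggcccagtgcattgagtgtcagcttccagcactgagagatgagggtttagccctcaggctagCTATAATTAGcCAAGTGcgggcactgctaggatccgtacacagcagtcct
Klhl41: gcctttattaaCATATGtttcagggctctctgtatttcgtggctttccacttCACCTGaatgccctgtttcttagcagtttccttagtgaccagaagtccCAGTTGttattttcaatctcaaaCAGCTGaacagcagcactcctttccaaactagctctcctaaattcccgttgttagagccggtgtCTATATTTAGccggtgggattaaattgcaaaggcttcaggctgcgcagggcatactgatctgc
The Klhl40 stretch holds 3 E-boxes and no MEF2 match, and the Klhl33 stretch shown holds 1 E-box and 1 MEF2 match. That of Klhl41 holds 4 E-boxes and 1 MEF2 match. Among other steady muscle genes not shown, the Klhl31 stretch holds 0 of either motif and the Kbtbd12 stretch 1 of each. Of 32851 such stretches in the table, 66.2% hold an E-box and 2.92% a MEF2 match. These matches describe letters only.

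Members linked to insulin, nutrient and WNK kinase signalling did not differ by more than their replicate spread. Kbtbd2 limits the p85 subunit of PI3-kinase and so sustains insulin signalling. It read 8.53, 8.46 and 8.60 in controls and 8.58, 8.52 and 8.64 in the labelled transgenics, a difference of 0.049 ± 0.07 (SE) with an interval from -0.13 to 0.22. The gene of its target, Pik3r1, differed by 0.16 ± 0.14 (SE). Klhl3, which marks WNK kinases for degradation, lay below the median probe set, at 5.75, 5.89 and 5.98 in controls and 5.99, 5.90 and 5.58 in the labelled transgenics. MLC-SOCS-3 replicate 3 was its lowest array, and the difference of -0.053 ± 0.13 (SE) became 0.069 without it. The related WNK adaptor Klhl2 differed by 0.059 ± 0.10 (SE). The gene of their target Wnk1 read 10.68 ± 0.01 (SD, n = 3) in controls and 10.61 ± 0.03 (SD, n = 3) with the transgene label, without overlap (difference -0.079, limma adjusted p = 0.87). Klhl25, an adaptor for the translation repressor 4E-BP1, differed by -0.088 ± 0.13 (SE) and Klhl22, which acts on the mTORC1 inhibitor DEPDC5, by 0.0090 ± 0.08 (SE).

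The 5 adaptors placed here under cell division all had small negative differences. This role group was formed after the values were seen and is not a full set of such adaptors. Klhl22 (0.0090) was placed above with nutrient signalling and is not counted in it. Of all genes only 43.8% had a positive difference. The Aurora B adaptors Klhl9, Klhl13 and Klhl21 were at -0.010, -0.026 and -0.044, the Aurora A adaptor Klhl18 at -0.028 and the katanin adaptor Klhl42 at -0.022. Their standard errors, between 0.08 and 0.13, were larger than any of these values (limma adjusted p between 0.96 and 0.99).

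Adaptors of traffic, the cytoskeleton and other signalling gave 7 positive and 3 negative differences among 10 genes. Klhl24, which controls keratin 14 in skin, was tight in controls, at 11.193, 11.174 and 11.191, and read 11.366, 11.195 and 11.286 in the labelled transgenics. The groups did not overlap, but MLC-SOCS-3 replicate 2 lay only just above control replicate 1 (difference 0.097 ± 0.07, SE). Klhl7, mutated in inherited retinal degeneration, read 9.166, 9.177 and 9.069 in controls and 9.198, 9.185 and 9.344 in the labelled transgenics, again barely without overlap (difference 0.10 ± 0.08, SE). Klhl8 lay lower in the labelled transgenics, at 8.48, 8.41 and 8.29 against 8.49, 8.51 and 8.55 (difference -0.12 ± 0.07, SE).

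Klhl15, an adaptor for a regulatory subunit of phosphatase PP2A, read 6.42, 6.30 and 6.26 in controls and 6.51, 6.35 and 6.47 in the labelled transgenics, with overlap. Its difference was 0.12 ± 0.08 (SE). Klhl12, which ubiquitinates the COPII coat protein Sec31 for collagen export, differed by 0.036 ± 0.10 (SE), and Klhl20, an adaptor for DAPK1 and PML, by 0.057 ± 0.11 (SE). Kbtbd6 and Kbtbd7 act together on the Rac1 activator Tiam1 and are neighbours on chromosome 14. They differed by 0.13 ± 0.12 (SE) and -0.0053 ± 0.13 (SE), and Kbtbd6 lay below the median probe set. Kbtbd4 was at 0.078 ± 0.09 (SE), and Kbtbd8, an adaptor of neural crest specification, at -0.094 ± 0.13 (SE). None of the 10 passed (limma adjusted p 0.86 or higher).

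Among members known from other tissues, Klhl14, a gene of B cell development, had one of the 2 smallest p-values of the family. It read 4.23, 4.13 and 4.24 in controls and 4.28, 4.43 and 4.69 in the labelled transgenics. The groups did not overlap, and MLC-SOCS-3 replicate 3 stood highest (difference 0.27 ± 0.12, SE, limma adjusted p = 0.83). All 6 values were dimmer than the median probe set, a range in which RMA shrinks folds. The testis gene Klhl10 was also below it, at 5.099, 4.915 and 4.873 in controls and 4.871, 4.861 and 4.746 in the labelled transgenics. Control replicate 3 lay only just above MLC-SOCS-3 replicate 1, and the difference was -0.14 ± 0.09 (SE). The neuronal gene Klhl1 and the B cell gene Klhl6 were at -0.071 ± 0.09 (SE) and -0.036 ± 0.16 (SE).

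The remaining 12 members, for which no role is given here, had 3 positive and 9 negative differences with a median of -0.043. Klhl35 was the tightest member and had the other smallest p-value. It read 6.22, 6.25 and 6.18 in controls and 6.09, 6.11 and 6.02 in the labelled transgenics. Every labelled transgenic array lay below every control, by a difference of -0.15 ± 0.06 (SE) with an interval from -0.30 to 0.0070 (limma adjusted p = 0.83). Klhl23 read 7.06, 6.797 and 7.199 in controls and 7.16, 7.21 and 7.17 in the labelled transgenics, with control replicate 2 the lowest array (difference 0.16 ± 0.11, SE). Klhl5 read 6.54, 6.75 and 6.74 in controls and 6.47, 6.49 and 6.67 in the labelled transgenics (difference -0.13 ± 0.09, SE).

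For 2 of these genes the probe sets disagreed in sign. Klhl32 was at -0.054 ± 0.10 (SE) by the brighter and 0.18 ± 0.10 (SE) by the dimmer probe set, both below the median probe set. Kbtbd11 was at -0.040 ± 0.09 (SE) and 0.19 ± 0.16 (SE). The other 7 genes were Klhl36 (-0.16), Klhl29 (-0.15), Kbtbd3 (-0.046), Klhl11 (-0.026), Klhl26 (-0.022), Klhl4 (0.032) and Klhl28 (0.085), as log2 differences.

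Of the 45 Kelch genes, 6 had groups that did not overlap, 3 higher (Klhl14, Klhl24 and Klhl7) and 3 lower (Klhl35, Klhl8 and Klhl10) on the arrays labelled MLC-SOCS-3. That is 13.3%, beside 12.3% of all genes, 4.52% higher and 7.76% lower. The share lies near the background. By level, 36 members lay above the median probe set on all 6 arrays, 7 below it on all 6, and Kbtbd8 and Klhl6 crossed it. Of all genes, 57.2% lay above it by their mean over the 6 arrays, a looser measure.

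**Figure D5:**
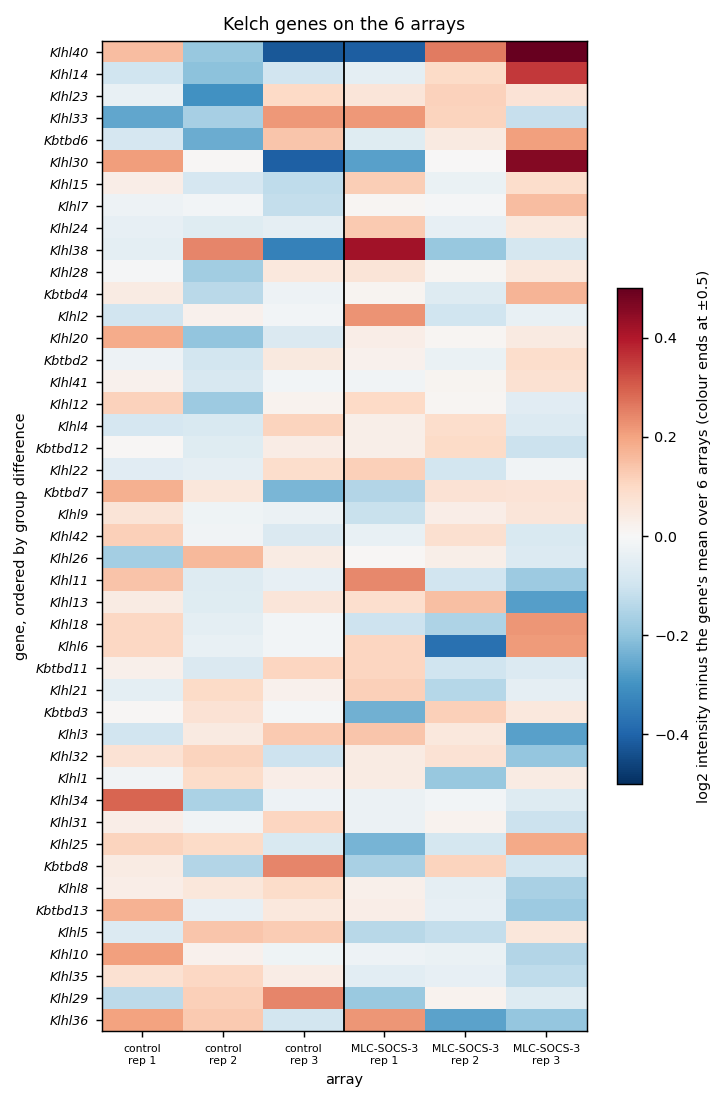
Log2 intensity of the 45 Kelch genes (rows, ordered by group difference) on the 6 arrays (columns) minus each gene's mean, with colour ending at 0.5 in either direction. Strong colours appear for Klhl40, Klhl30 and Klhl38 and differ among arrays of the same label.

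The ligase machinery, with other cullin ligases, substrates and nemaline myopathy genes, was read from lists of 82 distinct measured genes. In limma 0 rose and 0 fell at an adjusted p under 0.05. By unadjusted p under 0.05 there was 1 gene (1.22%), beside 4.86% of all genes. Among 11 genes of the cullin-RING core, 8 were positive and 3 negative with a median of 0.083. The scaffold Cul3 read 12.28, 12.19 and 12.31 in controls and 12.22, 12.30 and 12.28 in the labelled transgenics, a difference of 0.0045 ± 0.07 (SE) with an interval from -0.16 to 0.17. The RING subunit Rbx1 differed by 0.10 ± 0.08 (SE) and the exchange factor gene Cand1 by 0.11 ± 0.11 (SE). Cul5, the scaffold used by SOCS proteins, differed by 0.021 ± 0.06 (SE), and its RING partner Rnf7 by 0.24 ± 0.16 (SE). Cul4a, of another cullin ligase, was higher on all 3 labelled transgenic arrays (0.13 ± 0.07, SE), and Glmn, an inhibitor of Rbx1, differed by 0.15 ± 0.14 (SE). Of the 11 core genes only 1, Cul4a, had groups that did not overlap, beside 12.3% of all genes.

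Neddylation genes gave 6 positive and 4 negative differences among 10 measured, with Nedd8 at 0.035 ± 0.07 (SE). Ube2m was on this list but was not measured. Dcun1d1, a Nedd8 ligase for cullins, was at 0.086 ± 0.06 (SE), its relatives Dcun1d3 and Dcun1d5 were at -0.11 and 0.081, and the conjugating enzyme Ube2f was at 0.074. The 9 subunits of the COP9 signalosome gave 5 positive and 4 negative. Those with the smallest p were Cops8 (-0.12 ± 0.07, SE), Cops3 (0.078), the catalytic subunit Cops5 (0.096) and Cops2 (0.096). Of the 4 measured Kelch adaptors under other names, 1 was positive and 3 negative. They were Keap1, the sensor that restrains the antioxidant factor Nrf2 (-0.065 ± 0.06, SE), Ivns1abp (-0.057), Enc1 (-0.14) and Ipp (0.027).

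Among 16 other BTB adaptors of Cul3, 5 were positive and 11 negative. Btbd3 held the single unadjusted p under 0.05, at 8.65, 8.49 and 8.60 in controls and 8.81, 8.81 and 8.70 in the labelled transgenics (difference 0.19 ± 0.07, SE, limma adjusted p = 0.82). Kctd13 was at -0.27 ± 0.13 (SE), Rhobtb1 at -0.20 ± 0.10 (SE) and Kctd17 at -0.13 ± 0.07 (SE). The 24 substrates and partners gave 8 positive and 16 negative, with a median of -0.031. Those with the smallest p were the mitotic kinase gene Aurkb (-0.17), Pml (-0.11), Wnk1 and Dapk1 (-0.13). Groups did not overlap in 3 of the 24, Wnk1 included, beside 12.3% of all genes.

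Transcripts of the thin filament proteins that Klhl40 and Klhl41 support differed by less than their standard errors. Neb, which encodes nebulin, read 13.62, 13.64 and 13.62 in controls and 13.62, 13.60 and 13.62 in the labelled transgenics, a difference of -0.014 ± 0.06 (SE). Lmod3 differed by -0.032 ± 0.10 (SE). Of the 10 genes on the nemaline myopathy list, 3 were positive and 7 negative. The list is not confined to the thin filament, as it includes Myo18b and Mypn, both positive. The smallest p belonged to the slow troponin Tnnt1, at -0.21 ± 0.09 (SE, limma adjusted p = 0.83), followed by Tpm3 (0.048), Myo18b (0.053) and Cfl2 (-0.035).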

How the data were processed

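The deposited table holds 1 log2 intensity per probe set and array for 6 arrays. According to the submitters' processing notes, the authors produced these log2 values in Affymetrix Expression Console using RMA. Its version and the genome build were not given in the sources used here. The method corrects background, equalises the arrays' distributions and summarises probes, so folds are compressed and single probes cannot be inspected. Array medians lay between 5.98 and 6.04, and values were used as deposited. The table has no detection calls, and the number of arrays limits precision. At most 36 values were identical between any pair of arrays.

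Groups were compared by lmFit and eBayes of limma 3.58.1, two-sided, under R 4.3.3, with Benjamini-Hochberg adjustment over all 35557 probe sets and a threshold of 0.05. Intervals are limma's moderated 95% intervals. The platform annotation, which can be old, gave 21789 probe sets a single symbol, and the 1621 with several were not used for named genes. The fit was tested on simulated data. The members and lists were chosen with earlier results of these data known, and the role groups and promoters after their values were seen.

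Values on every array are given for the 9 muscle Kelch genes, Kbtbd2, Klhl3, the 8 members with the smallest p and members whose groups do not overlap. From each machinery list the 4 genes with the smallest p are named, with Cul3, Rbx1, Nedd8, Keap1, Neb, Lmod3, Flnc, Pik3r1 and Wnk1; Cul5, Rnf7 and Cand1 are added for their role. Alternatives were moderation with trend and robust settings, centring of arrays, filters on the probe sets tested, other probe sets, a replicate block and leaving out each array.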

Additional observations from a re-analysis of the deposited data

How the results depend on the processing

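No Kelch gene and no machinery gene was called under the main setting or any alternative, and over 264 combinations of a named member and an alternative the smallest adjusted p in limma was 0.72. The sign held in 250 and changed in 14, in 7 of the 22 genes; the cause was not tested. With another probe set Klhl32 was at 0.18 and Kbtbd11 at 0.19. Leaving out 1 array at a time gave ranges of -0.17 to 0.055 for Klhl34, -0.035 to 0.066 for Kbtbd12, -0.071 to 0.30 for Klhl30, -0.089 to 0.24 for Klhl38, -0.10 to 0.0042 for Kbtbd11, -0.14 to 0.069 for Klhl3 and -0.12 to 0.029 for Klhl32.

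The count of Kelch genes at an unadjusted p under 0.05 was 0 and became 1 with centred arrays (Klhl14), 1 above the median level (Klhl35), and 1 with 1 probe set per gene or only single-symbol probe sets tested (Klhl14). Leaving out an array gave 0 to 3. The members' median difference of -0.022 ran from -0.022 to 0.018 on leaving out an array, and was -0.0023 with centred arrays, where 22 members were positive and 23 negative. Over all probe sets the count called was 0, or 1 (Casp12) with 1 probe set per gene or only single-symbol probe sets tested, and 0 to 1 without an array.

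The replicate block, which pairs arrays by number, called 0 Kelch genes and put Klhl40 at an adjusted p of 0.92. Same-numbered arrays did not deviate together (correlations of -0.12, -0.053 and -0.24), so the numbers were not taken as pairs. With 3 arrays a group, an exact permutation test of 1 gene cannot go below p = 0.10.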
